A study of Rattus norvegicus with 2 samples.

Results

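Basement membranes are the thin sheets of matrix on which epithelia rest and which wrap capillaries, Schwann cells and other cells. They are built from a network of type IV collagen and a network of laminin, a trimer of an alpha, a beta and a gamma chain that binds to receptors at the cell surface. Nidogens and the heparan sulphate proteoglycan perlecan join the networks. In the cochlea such sheets lie under the epithelium of the duct, around its vessels and around the Schwann cells of the auditory nerve. The genes described here are the collagen IV chains Col4a1 and Col4a2, the laminin chains Lama2, Lama4, Lamb1 and Lamc1, the nidogens Nid1 and Nid2 and the perlecan gene Hspg2. They were picked by gene symbol, and 8 of the 9 symbols were present among the 32623 genes listed. Hspg2 was the 1 symbol that was not found.

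Cochlear ducts of Sprague-Dawley rats, male and/or female, were collected on postnatal day 1 (P1, the day of birth) and postnatal day 7 (P7). The labels name no allele or treatment, 40 rats were chosen for each age, and tissue of an age was pooled and run as 1 droplet library of 3' transcript ends. The 2 libraries are therefore 1 sample per age, no test between ages was possible, and intervals given here cover counting error only, never the spread between animals. The stria vascularis, spiral ligament and spiral ganglion were dissected away, although cells with markers of connective tissue and of Schwann cells made up most of both libraries.

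The submitters gave the cell type of both samples as greater epithelial ridge cell, a transient epithelium beside the hair cells. The data went against that label for most cells. Cells of the cluster with epithelial markers numbered 301 of 12779 at P1 and 215 of 12581 at P7, or 2.36% and 1.71% of the cells. Only 4.94% of cells at P1 and 4.55% at P7 held a transcript of Epcam, an adhesion protein of epithelia. The cells kept held a median of 6565 unique molecular identifiers (UMIs, each standing for 1 captured transcript) at P1 and 6878 at P7. Of the barcodes, 60 occurred in both libraries.

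Cells were clustered without the genes described here and clusters were named from marker genes. The 5 classes compared were mural-like cells (the pericytes and smooth muscle of vessels, 331 cells at P1 and 287 at P7), endothelial-like cells (the lining of vessels, 167 and 189), Schwann-like cells (1927 and 3453), epithelial-like cells (301 and 215) and mesenchymal-like cells (connective tissue, 9136 and 5804). The same markers named the clusters, so their presence is no independent check. At both ages, 12 of 12 mural and 12 of 12 epithelial markers had at least 1 UMI in their own class. So did 13 of 13 Schwann and 17 of 17 mesenchymal markers, and 11 of 11 endothelial markers at P1 with 1 of them at 0 at P7. Having a UMI does not separate classes, since mesenchymal-like cells also held every mural, epithelial and Schwann marker. The summed level of each list was highest in its own class at both ages. Schwann-like and mesenchymal-like cells of the 2 ages lay mostly in different clusters. For Schwann-like cells these were cluster c5 at P1 and c0 and c22 at P7, with the dividing cluster c12 at both ages. For mesenchymal-like cells they were c1, c2, c3 and c8 at P1 and c4, c6, c9 and c11 at P7, with the dividing cluster c10 at both ages.

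A gene's level is given as CPM, the usual unit in which its summed UMIs in a class are scaled to the same fixed library total for every class, with an exact Poisson 95% interval. Macrophage-like cells (188 at P1 and 178 at P7), which are no main source of basement membrane, served as the measure of free RNA, transcripts from broken cells that can enter every droplet. This measure has a limit, since these cells held 11966 CPM of 6 neutrophil markers at P1 and 546 CPM at P7. Their make-up thus differed between ages, and the effect of this on their member levels was not tested. The 17 mesenchymal markers summed to 2365 CPM in macrophage-like cells at P1 and to 5205 CPM at P7, with none of them at 0, and the 13 Schwann markers to 349 and 1008 CPM, with 2 and 1 of them at 0. Mural-like cells held 3905 and 4551 CPM of the mesenchymal markers and endothelial-like cells 1499 and 2185 CPM. Endothelial-like cells also held 13023 and 2778 CPM of 5 markers of red blood cells. Called doublets made up 12.4% and 14.3% of mural-like cells and 13.8% and 16.4% of endothelial-like cells, and 13.8% and 14.6% of the macrophage-like cells themselves. The part of both in the values below was not tested, except where a value with the macrophage-like level subtracted or without doublets is given.

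**Figure D1:**
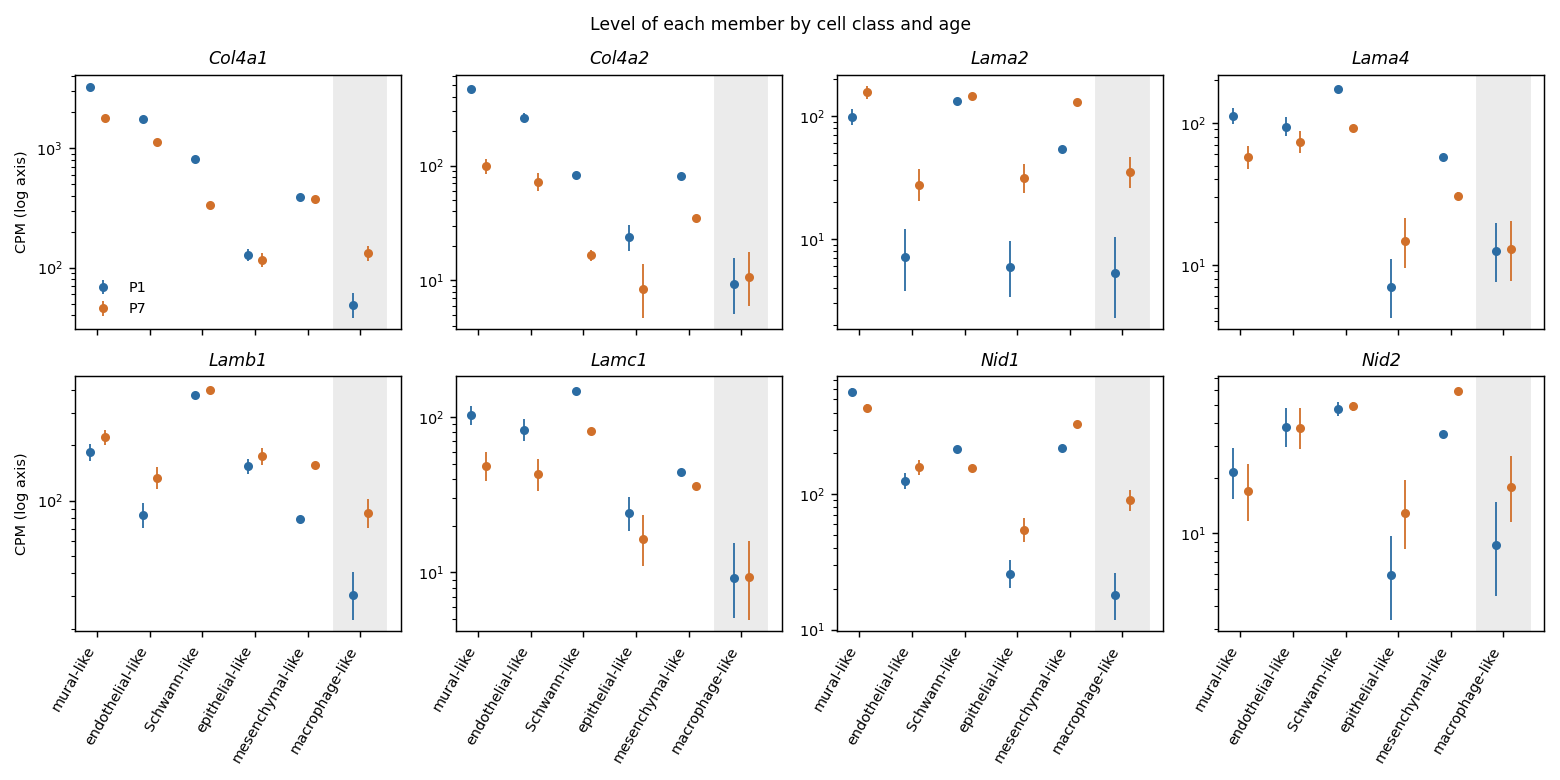
Level of the 8 members found, in CPM on a log axis, in each cell class at P1 (blue) and P7 (orange), with exact Poisson 95% intervals; the grey band holds macrophage-like cells, the measure of free RNA. Col4a1 ran from 3232 CPM in mural-like cells to 128 CPM in epithelial-like cells at P1, and the macrophage-like points of 5 members lie at least 2-fold higher at P7.

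Col4a1 (ENSRNOG00000016281) and Col4a2 (ENSRNOG00000023972) encode the chains of the most widespread collagen IV trimer. Their levels were highest in mural-like cells and next highest in endothelial-like cells at both ages, and lowest in epithelial-like cells. Both were lower at P7 in mural-like, endothelial-like and Schwann-like cells, and Col4a2 was lower by more than Col4a1 in every class.

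Col4a1 stood at 3232 CPM (3152 to 3314) in mural-like cells at P1 and at 1784 CPM (1724 to 1845) at P7. In endothelial-like cells it was 1764 CPM (1704 to 1826) and 1137 CPM (1086 to 1189). Schwann-like cells held 818 CPM (802 to 835) at P1 and 335 CPM (327 to 343) at P7. These 3 classes were all lower at P7, with no overlap of the intervals. In mesenchymal-like cells the level was 392 CPM (387 to 397) at P1 and 374 CPM (369 to 380) at P7, and in epithelial-like cells it was 128 and 116 CPM. At P7 the epithelial-like level was no higher than the 132 CPM of macrophage-like cells (48.4 CPM at P1), so it is read as background at that age. Schwann-like cells stood above mesenchymal-like cells at P1 and below them at P7, and no neighbours in the order of classes had overlapping intervals at either age.

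The log2 ratio of P7 to P1 for Col4a1 was -0.86 (95% interval -0.92 to -0.80) in mural-like cells, -0.63 (-0.72 to -0.55) in endothelial-like cells and -1.29 (-1.33 to -1.24) in Schwann-like cells. Schwann-like cells were the class in which Col4a1 fell past 2-fold, and in their dividing cluster alone the ratio was -0.997, just short of it. The ratio was -0.07 in mesenchymal-like cells, where its sign turned in 7 of 14 other ways of grouping or scaling the cells. In cells thinned to 2000 UMIs each, 98.5% of mural-like cells held a Col4a1 UMI at P1 and 94.0% at P7, against 77.5% and 47.0% of Schwann-like cells and 7.95% and 16.6% of macrophage-like cells. Without thinning the shares were 99.4% and 99.3% in mural-like, 94.8% and 76.9% in Schwann-like and 15.4% and 33.7% in macrophage-like cells. Median depths were 5233 and 5836 UMIs in mural-like, 4562 and 4879 in Schwann-like and 7180 and 6968.5 in macrophage-like cells.

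Col4a2 gave 461 CPM (431 to 493) in mural-like cells at P1 and 98.6 CPM (84.9 to 114) at P7. Endothelial-like cells held 261 CPM (238 to 285) and 72.3 CPM (59.9 to 86.4). The levels in Schwann-like cells were 83.2 CPM at P1 and 16.6 CPM at P7, and those in mesenchymal-like cells 81.2 and 35.0 CPM. Epithelial-like cells held 23.7 and 8.44 CPM. The P7 values of Schwann-like and epithelial-like cells were not above those of macrophage-like cells, which were 9.28 CPM at P1 and 10.7 CPM (6.01 to 17.7) at P7.

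Col4a2 fell past 2-fold in all 5 classes. As a log2 ratio of P7 to P1 it stood at -2.23 (-2.46 to -2.0) in mural-like, -1.85 (-2.15 to -1.56) in endothelial-like, -2.32 (-2.51 to -2.15) in Schwann-like, -1.49 (-2.41 to -0.66) in epithelial-like and -1.21 (-1.29 to -1.13) in mesenchymal-like cells. Under the 14 other groupings and scalings it stayed negative in every class where a value could be given, with -0.93 to -1.57 in mesenchymal-like cells, so that the call in that class was lost in some of them. Of all genes tested, 5.25% were at least 2-fold lower at P7 in mural-like cells, 5.05% in endothelial-like, 7.48% in Schwann-like, 7.69% in epithelial-like and 4.46% in mesenchymal-like cells.

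The Col4a2 share of the UMIs of the pair was smaller at P7 in each class. It was 12.5% (11.7 to 13.3, exact binomial 95% interval) at P1 and 5.24% (4.53 to 6.02) at P7 in mural-like cells. In endothelial-like cells it was 12.9% and 5.98%, in Schwann-like cells 9.23% and 4.73%, and in mesenchymal-like cells 17.2% and 8.55%. The few UMIs of macrophage-like cells gave 16.1% (9.09 to 25.5) and 7.50% (4.26 to 12.1), and all cells together 14.6% and 7.44%. The share itself is not the ratio of the transcripts, since capture at the 3' end differs between genes, and it is compared between ages only.

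**Figure D2:**
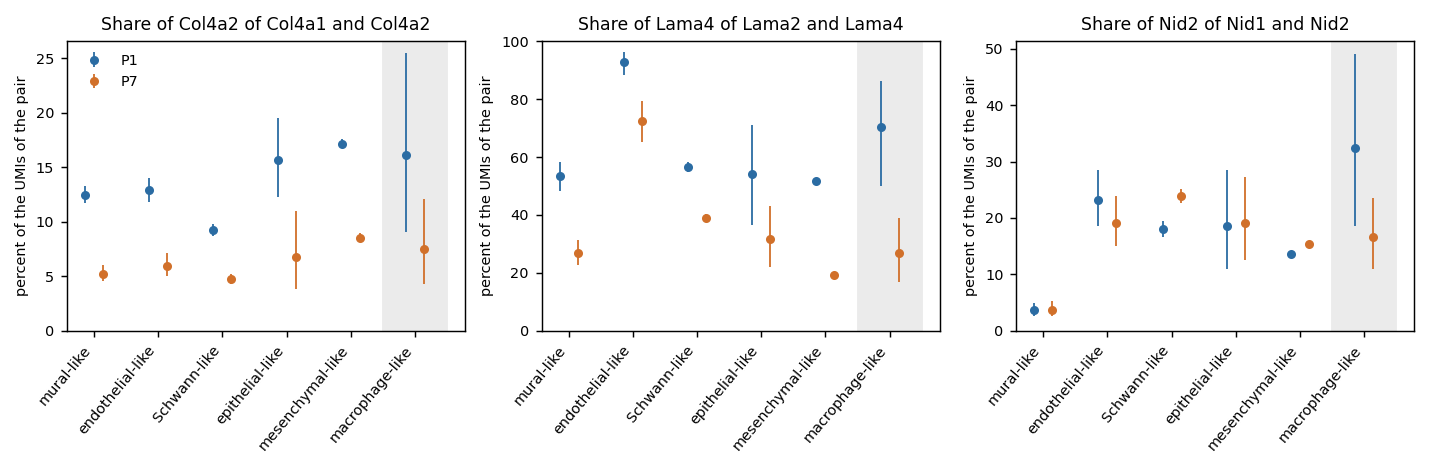
Share of the UMIs of 3 gene pairs that came from Col4a2, Lama4 or Nid2, in percent, by class at P1 (blue) and P7 (orange) with exact binomial 95% intervals; the grey band holds macrophage-like cells. The Col4a2 and Lama4 shares lie lower at P7 in all 5 classes, with overlapping intervals for Lama4 in epithelial-like cells, while the Nid2 share of mural-like cells was 3.62% and 3.75%.

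The 2 collagen genes lie head to head, on opposite strands, and share the stretch between their transcription starts. It is shown because both genes start from it, and any part of it in their levels was not tested. In RefSeq's assembly GRCr8 this stretch is chr16:84885521-84885596, read here on the strand of Col4a1, and its 76 bases follow with the GC box in capitals:
Col4a2-Col4a1 interval: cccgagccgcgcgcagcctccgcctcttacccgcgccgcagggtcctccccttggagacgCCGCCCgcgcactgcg
The transcript of Col4a2 starts just before its first base and runs away to the left, and that of Col4a1 starts just after its last base and runs to the right. Of these bases, 78.9% were G or C, against a median of 51.7% over all 33469 promoter windows of 300 bases in the RefSeq table. Those windows are longer and reach 250 bases before a start, so the 2 values are not like for like. A GC box (GGGCGG on either strand, here as its reverse complement) occurred 1 time in the stretch, and no CCAAT or TATAAA was found on either strand of these 76 bases. In the longer windows of 300 bases, those of Col4a1 and Col4a2 both held CCAAT, though not within the stretch. Of all windows of that length, 33.1% held GGGCGG, 37.5% CCAAT and 14.2% TATAAA. Among the windows of members, 7 of 8 held GGGCGG, 4 of 8 CCAAT and 1 of 8 TATAAA. Windows that overlapped a window of the opposite strand made up 10.2% of the table, and among the 8 members with a window, which include Hspg2 and leave out Nid2, these were Col4a1 and Col4a2 alone. A match of letters is a description and shows no bound factor.

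Laminin alpha chains carry the part of the trimer that binds cell receptors. Lama2 (ENSRNOG00000011134), the alpha2 chain of muscle and Schwann cell basement membranes, and Lama4 (ENSRNOG00000000599), the alpha4 chain of vessels and nerve, had P7 to P1 ratios of opposite sign in mesenchymal-like cells. Lama2 rose past 2-fold there, while Lama4 was lower at P7 by just under 2-fold in mural-like, Schwann-like and mesenchymal-like cells.

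Lama2 stood at 133 CPM (126 to 140) in Schwann-like cells at P1 and 144 CPM (139 to 149) at P7. In mural-like cells it was 97.9 CPM (84.4 to 113) and 156 CPM (139 to 175), and in mesenchymal-like cells 53.9 CPM (52.2 to 55.7) and 129 CPM (126 to 133). Schwann-like cells were thus highest at P1, while mural-like and Schwann-like intervals overlapped at P7. Their order turned once cells holding markers of another class were removed. That removal counted mural, endothelial, Schwann, epithelial, macrophage and neuron markers, and not mesenchymal ones. Endothelial-like cells held 7.11 and 27.7 CPM and epithelial-like cells 5.92 and 31.5 CPM. Macrophage-like cells held 5.30 CPM (2.29 to 10.4) at P1 and 35.1 CPM (26.0 to 46.4) at P7. Both low classes are thus read as background for Lama2 at both ages.

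The log2 ratio of P7 to P1 for Lama2 was 1.26 (1.2 to 1.32) in mesenchymal-like cells, and 0.96 after the macrophage-like level was subtracted. It was 0.67 (0.40 to 0.94) in mural-like cells and 0.11 (0.02 to 0.20) in Schwann-like cells. The ratios of 1.96 in endothelial-like and 2.41 in epithelial-like cells passed 2-fold but rest on levels at the background, where macrophage-like cells gave 2.73 (1.64 to 4.02). Of all genes tested, 8.98% were at least 2-fold higher at P7 in mesenchymal-like, 9.94% in endothelial-like and 12.1% in epithelial-like cells. Within the dividing mesenchymal-like cluster held by both ages the Lama2 ratio was 1.03.

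Lama4 stood at 173 CPM (166 to 181) in Schwann-like cells at P1 and at 91.3 CPM (87.3 to 95.4) at P7. Mural-like cells held 112 CPM (97.6 to 128) and 57.3 CPM (47.0 to 69.1), and endothelial-like cells 94.1 CPM (80.6 to 109) and 73.5 CPM (61.0 to 87.8). In mesenchymal-like cells the levels were 57.8 and 30.7 CPM. Epithelial-like cells held 7.03 and 14.6 CPM, with intervals that overlapped the 12.6 and 12.9 CPM of macrophage-like cells. Schwann-like cells were highest at P1, and at P7 their interval met that of endothelial-like cells.

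The log2 ratio of P7 to P1 for Lama4 was -0.93 (-1.02 to -0.83) in Schwann-like, -0.97 (-1.32 to -0.63) in mural-like and -0.91 (-1.0 to -0.82) in mesenchymal-like cells. In endothelial-like cells it was -0.36 (-0.70 to -0.01). The ratio of 1.06 (0.15 to 1.99) in epithelial-like cells came from 19 and 26 UMIs at background level. With the macrophage-like level subtracted, the ratios of Schwann-like, mural-like and mesenchymal-like cells were -1.04, -1.17 and -1.34, all past 2-fold.

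Lama4 took a smaller part of the alpha chain UMIs at P7. Its share of the UMIs of Lama2 and Lama4 was 53.4% (48.3 to 58.3) at P1 and 26.9% (22.6 to 31.5) at P7 in mural-like cells. In mesenchymal-like cells it was 51.8% and 19.2%, and in Schwann-like cells 56.6% and 38.8%. Endothelial-like cells kept mostly Lama4, with 93.0% and 72.6%, and their Lama2 UMIs lay at the background level. Macrophage-like cells gave 70.4% (49.8 to 86.2) and 26.9% (16.8 to 39.1) from 27 and 67 UMIs.

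Lamb1 (ENSRNOG00000005678) and Lamc1 (ENSRNOG00000002680) encode the beta1 and gamma1 chains, which pair with either alpha chain. Both were highest in Schwann-like cells at both ages. Lamb1 was level or higher at P7 and Lamc1 was lower at P7 in each class.

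Lamb1 gave 378 CPM (367 to 390) in Schwann-like cells at P1 and 403 CPM (395 to 412) at P7. Mural-like cells held 183 and 222 CPM, endothelial-like cells 83.2 and 133 CPM, and mesenchymal-like cells 79.1 CPM (77.1 to 81.3) and 156 CPM (152 to 160). It was the 1 member above the macrophage-like level at both ages in epithelial-like cells, at 154 CPM (139 to 169) and 174 CPM (156 to 195), against 30.5 and 85.2 CPM in macrophage-like cells. In thinned cells 22.6% and 28.4% of epithelial-like cells held a Lamb1 UMI, against 2.84% and 12.9% of macrophage-like cells, and without thinning the shares were 49.8% and 54.4% against 10.6% and 32.6%. Median depths were 8086 and 6811 UMIs in epithelial-like cells. Their thinned shares rest on 274 of 301 cells at P1 and on 141 of 215 at P7.

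The log2 ratio of P7 to P1 for Lamb1 was 0.98 (0.93 to 1.03) in mesenchymal-like cells, just under 2-fold. It was 0.68 (0.37 to 0.99) in endothelial-like, 0.27 (0.07 to 0.48) in mural-like, 0.18 (-0.04 to 0.40) in epithelial-like and 0.09 (0.04 to 0.15) in Schwann-like cells. After subtraction of the macrophage-like level the mesenchymal-like ratio was 0.54, and those of the other 4 classes were below 0, from -0.13 to -0.47.

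Lamc1 gave 146 CPM (139 to 154) in Schwann-like cells at P1 and 80.9 CPM (77.1 to 84.8) at P7. In mural-like cells it was 103 CPM (89.3 to 119) and 48.2 CPM (38.8 to 59.2), and in endothelial-like cells 83.2 CPM (70.5 to 97.5) and 42.8 CPM (33.4 to 53.9). Mesenchymal-like cells held 44.1 and 35.9 CPM and epithelial-like cells 24.0 and 16.3 CPM, against 9.28 and 9.31 CPM in macrophage-like cells. Lamc1 fell past 2-fold in mural-like cells, with a log2 ratio of -1.10 (-1.47 to -0.73). The ratios were -0.96 (-1.39 to -0.54) in endothelial-like, -0.86 (-0.95 to -0.76) in Schwann-like, -0.56 (-1.24 to 0.09) in epithelial-like and -0.30 (-0.38 to -0.21) in mesenchymal-like cells. All of these kept their sign in the 14 other groupings and scalings.

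As a class total, Nid1 (ENSRNOG00000002461), which links laminin to collagen IV, was highest in mural-like cells. Its level was 572 CPM (539 to 607) there at P1 and 436 CPM (406 to 467) at P7. Mesenchymal-like cells came next, at 221 CPM (217 to 224) and 328 CPM (323 to 333), although their cluster c4 held 821 CPM at P7, above the mural-like level. Schwann-like cells held 215 CPM (206 to 223) and 156 CPM (151 to 162), and endothelial-like cells 125 CPM (109 to 142) and 158 CPM (139 to 178). The level was thus higher at P7 in mesenchymal-like and endothelial-like cells and lower in mural-like and Schwann-like cells. Epithelial-like cells held 25.9 and 54.6 CPM, no more than the 17.9 CPM (11.8 to 26.0) and 90.2 CPM (75.2 to 107) of macrophage-like cells allow.

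The log2 ratio of P7 to P1 for Nid1 was 0.57 (0.54 to 0.60) in mesenchymal-like and 0.34 (0.08 to 0.60) in endothelial-like cells, and -0.39 (-0.52 to -0.26) in mural-like and -0.46 (-0.53 to -0.38) in Schwann-like cells. None of these passed 2-fold. With the macrophage-like level subtracted, they became 0.23 in mesenchymal-like, -0.66 in endothelial-like, -0.68 in mural-like and -1.57 in Schwann-like cells, so the endothelial-like direction turned. The ratio of 1.08 (0.62 to 1.54) in epithelial-like cells lies at the background, where macrophage-like cells gave 2.33 (1.73 to 2.99). In epithelial-like cells it was -0.67 when cells holding non-mesenchymal markers of another class were removed.

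Nid2 (ENSRNOG00000000341), the second nidogen, was low in each class. It gave 47.4 CPM (43.4 to 51.6) in Schwann-like cells at P1 and 49.0 CPM (46.1 to 52.1) at P7, and 37.8 and 37.3 CPM in endothelial-like cells. Mesenchymal-like cells held 34.7 CPM (33.3 to 36.1) at P1 and 59.4 CPM (57.2 to 61.7) at P7 and were highest at that age. Schwann-like cells were highest at P7 once cells holding non-mesenchymal markers of another class were removed. At P1 endothelial-like cells came first in 2 of the other settings. Mural-like cells, the highest class for Nid1, held 21.5 and 17 CPM of Nid2, the latter within the interval of macrophage-like cells (17.9 CPM, 11.6 to 26.4). Epithelial-like cells held 5.92 and 12.9 CPM and failed the filter on low levels. As a log2 ratio of P7 to P1 this gave 0.78 (0.70 to 0.86) in mesenchymal-like cells and 0.67 after subtraction of the macrophage-like level. In the other classes that passed the filter the ratio was between -0.34 and 0.05, with intervals that include 0.

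The nidogens were thus split between classes. Nid2 took 3.62% (2.61 to 4.88) of the UMIs of the pair in mural-like cells at P1 and 3.75% (2.58 to 5.25) at P7. In Schwann-like cells it took 18.1% (16.7 to 19.5) and 23.9% (22.6 to 25.2), and in mesenchymal-like cells 13.6% and 15.3%.

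**Figure D3:**
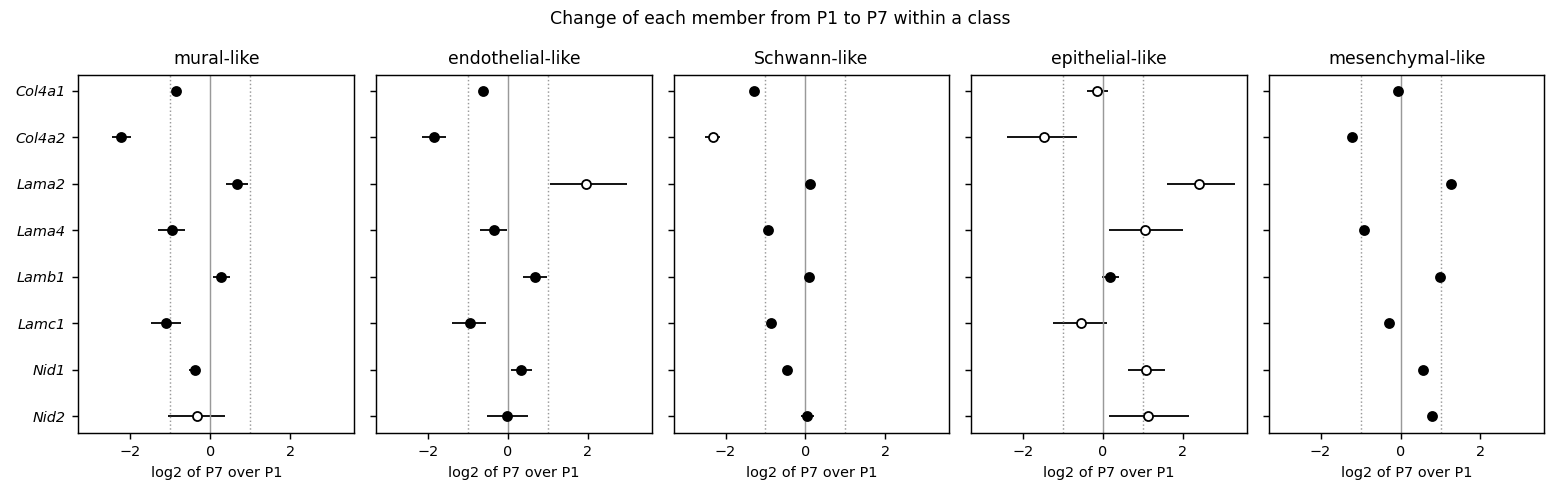
Log2 ratio of P7 to P1 for each member in 5 cell classes, with exact conditional binomial 95% intervals; dotted lines mark 2-fold, and open circles mark members whose level was not above that of macrophage-like cells at both ages. Col4a2 lies at or below -1.21 in every class, and most open circles are in epithelial-like cells.

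Counted by class, 0 of 8 members tested rose and 2 fell past 2-fold at P7 in mural-like cells (Col4a2 and Lamc1), where 7.21% and 5.25% of all 7396 genes tested did so. In Schwann-like cells 0 rose and 2 fell (Col4a1 and Col4a2), against 8.47% and 7.48% of 7153 genes. In endothelial-like cells 1 rose (Lama2) and 1 fell (Col4a2), against 9.94% and 5.05% of 7225 genes, and in mesenchymal-like cells 1 rose (Lama2) and 1 fell (Col4a2), against 8.98% and 4.46% of 7405 genes. In epithelial-like cells 3 of 7 tested rose (Lama2, Lama4 and Nid1) and 1 fell (Col4a2), against 12.1% and 7.69% of 7637 genes, and each of these 4 lay at the level of macrophage-like cells at P7. The median log2 ratio over the members tested was -0.62 in mural-like, -0.66 in Schwann-like, -0.19 in endothelial-like, 0.18 in epithelial-like and 0.25 in mesenchymal-like cells, beside 0.08, 0.11, 0.14, 0.13 and 0.14 over all genes tested. In macrophage-like cells 5 of 7 members rose, with a median of 1.45, and 13.5% of all genes did.

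Against all other cells of the same library, mural-like cells at P1 were at least 2-fold higher for Col4a1, Col4a2 and Nid1, with log2 ratios of 2.83, 2.47 and 1.52 on the log2(CPM + 5) scale, where 7.24% of all genes were. At P7 these ratios were 2.09, 1.40 and 0.65, and the first 2 passed 2-fold, as 6.53% of all genes did. Endothelial-like cells passed for Col4a1 (1.86) and Col4a2 (1.59) at P1, where 9.66% of genes did, and for Col4a1 (1.39) at P7, where 9.14% did. Schwann-like cells passed at P1 for the laminin chains Lama2 (1.31), Lama4 (1.51), Lamb1 (2.02) and Lamc1 (1.56), where 7.47% of genes did, and at P7 for Lama4 (1.31), Lamb1 (1.22) and Lamc1 (1.05), where 8.11% did. Collagen IV chains and nidogen-1 were thus highest in mural-like cells and the laminin chains in Schwann-like cells at P1. In epithelial-like cells 7 of 8 members were at least 2-fold lower than in all other cells at both ages, as 8.48% of all genes were at P1 and 8.22% at P7, and Lamb1 was the exception. In endothelial-like cells 1 of 8 was lower at P1 (11.8% of all genes) and 1 at P7 (11.2%). The same count held in mural-like (7.2%) and Schwann-like cells (10.9%) at P7 and in mesenchymal-like cells at P1 (9.79%). Mesenchymal-like cells had 0 of 8 higher at both ages, as 4.55% and 2.74% of all genes were.

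Within the Schwann-like class the dividing cluster c12, which held 277 cells of P1 and 578 of P7, gave the same directions for the collagen chains as the whole class. Its Col4a1 level was 682 CPM at P1 and 342 CPM at P7, and its Col4a2 level 75.0 and 16.0 CPM. Lama4 was 155 and 89.4 CPM there. Cluster c22, held almost wholly by P7 with 129 cells, had the lowest Col4a1 (153 CPM) and Lama4 (30.2 CPM) of the Schwann-like clusters at that age, with Lama2 at 173 CPM.

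Mesenchymal-like clusters differed more. At P1 Col4a1 ran from 117 CPM in cluster c3 to 763 CPM in c1, and Nid1 from 62.4 to 460 CPM in the same clusters. Cluster c1, whose leading genes included Penk and Col1a1, was highest at P1 for all members but Lama4. At P7 Col4a1 ran from 91.4 CPM in c9 to 729 CPM in c4 and Nid1 from 99.5 CPM in c6 to 821 CPM in c4. Cluster c4, led by Col15a1, Lepr and Dcn, was highest of them for all 8 members, with 275 CPM of Lama2 and 127 CPM of Nid2. Its Nid1, Lama2 and Nid2 levels were above those of each of the 5 classes at P7, where mural-like cells held 436 CPM of Nid1. For Col4a1 and Nid1 the clusters of 1 age thus lay further apart than the class totals of the 2 ages.

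**Figure D4:**
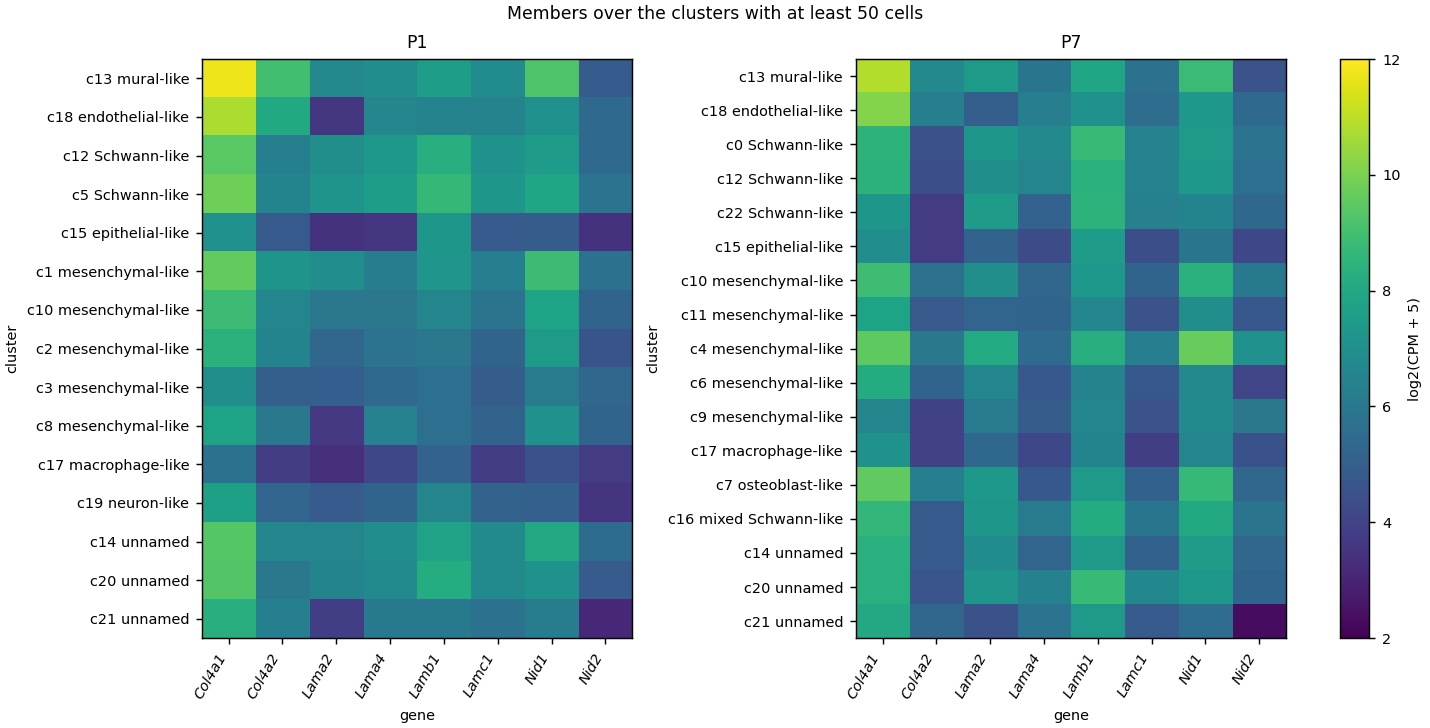
Level of each member, as log2(CPM + 5) by colour, in each cluster that held 50 cells or more of a library, at P1 (left) and P7 (right). Rows are grouped by class; the mural-like row is brightest for Col4a1 at both ages, and among mesenchymal-like rows c1 at P1 and c4 at P7 stand out.

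Over those clusters of 50 cells or more (15 at P1 and 17 at P7, which share a library and its free RNA), the genes whose log2 levels followed a member most closely were ranked among 7045 genes. For Col4a1 they were Hes1, Zeb1 and Reep3 (mean Pearson r of 0.899, 0.895 and 0.865). For Lama2 they were Nkain4, Olfml1 and Col3a1 (0.895, 0.889 and 0.848), for Lama4 Lpar4, Spata6 and Sash1 (0.872, 0.863 and 0.847), and for Nid1 Col5a2, Col3a1 and Sgce (0.859, 0.857 and 0.834). Among the members, Col4a1 and Col4a2 had r of 0.951 at P1 and 0.922 at P7, and Lamb1 and Lamc1 0.847 and 0.912. These values describe the clusters and have no test.

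The other components of basement membranes show which further chains each class held. Of 27 genes listed, 26 were present in the files. In mural-like cells Col4a4, a chain of the collagen IV trimers with a narrower distribution, stood at 274 CPM at P1 and 311 CPM at P7, and Col4a5 at 117 and 141 CPM. Epithelial-like cells were highest for Lama5, the alpha5 chain of epithelial basement membranes, with 56.6 and 82.2 CPM, and for Smoc2, a secreted calcium-binding protein, with 645 and 504 CPM. Endothelial-like cells were highest for Col15a1, a collagen at the outer face of basement membranes, with 276 and 397 CPM. Sparc, a collagen-binding glycoprotein, gave 4941 and 5802 CPM in mural-like cells.

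**Figure D5:**
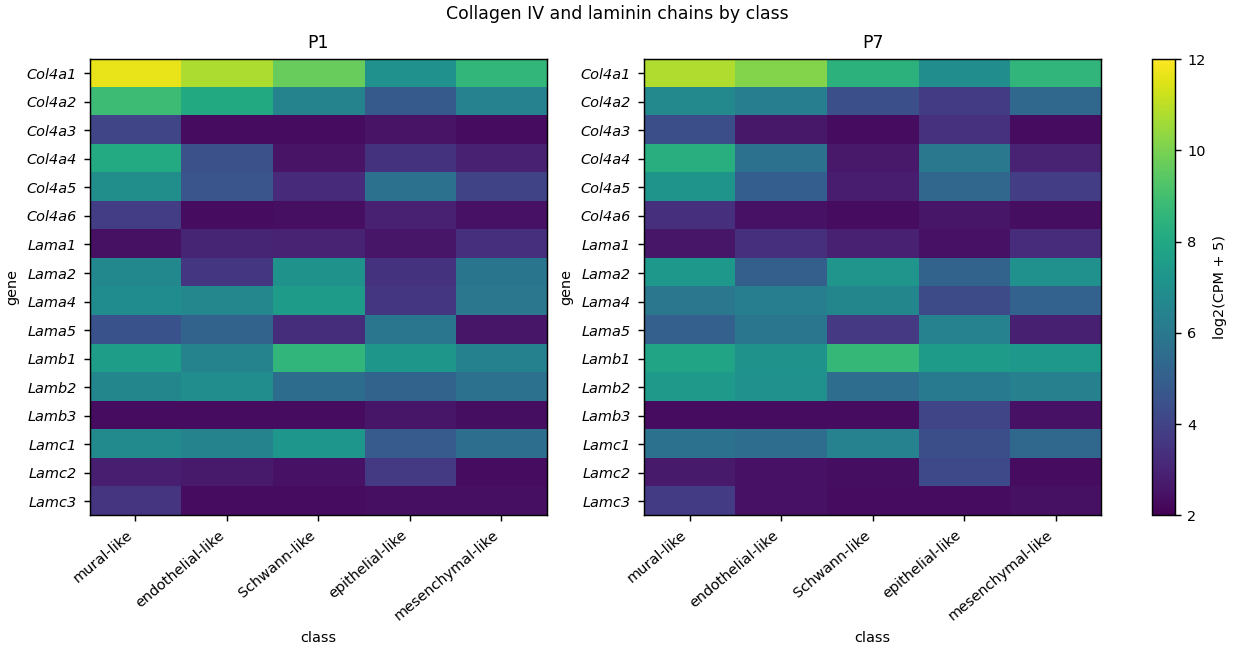
Level of the collagen IV and laminin chains present, as log2(CPM + 5) by colour, in 5 cell classes at P1 (left) and P7 (right). Col4a1 and Col4a2 are brightest in mural-like and endothelial-like cells, Col4a4 in mural-like cells, Lamb1 in Schwann-like cells and Lama5 in epithelial-like cells.

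The counts between ages that follow, here and for the next 3 lists, stand beside the shares of all genes tested that were higher at P7, which were 7.21% in mural-like, 9.94% in endothelial-like, 8.47% in Schwann-like, 12.1% in epithelial-like and 8.98% in mesenchymal-like cells. The shares lower at P7 were 5.25%, 5.05%, 7.48%, 7.69% and 4.46% in the same order. Of the other components, 1 of 12 tested rose and 0 fell in mural-like cells, the 1 being Tinagl1, a matrix glycoprotein, with a log2 ratio of 1.34 (106 to 269 CPM). In endothelial-like cells 1 of 12 rose (Col4a4, 17.5 to 49.4 CPM), and in Schwann-like cells 1 of 7 fell (Hmcn1, the matrix protein hemicentin-1, -1.10). In mesenchymal-like cells 2 of 9 rose, namely Col15a1 with 17.7 and 142 CPM (3.0) and Sparc (1.09). In epithelial-like cells 4 of 13 rose, led by Col15a1 (4.11) and Col4a4 (3.32). Col15a1 there went from 3 to 34 UMIs and reached 19.1 CPM, under the 30.1 CPM of macrophage-like cells. The median log2 ratio over the list was 0.25 in mural-like, 0.45 in endothelial-like, 0.07 in Schwann-like, 0.23 in mesenchymal-like and 0.54 in epithelial-like cells. In macrophage-like cells 5 of 7 rose, Sparc among them (321 to 1175 CPM).

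Among 14 receptors, Schwann-like cells were highest for Dag1, the laminin receptor dystroglycan (333 and 355 CPM), and for the integrin chains Itga6 (245 and 235 CPM) and Itgb4 (151 and 200 CPM). Mural-like cells were highest for Itga1, a chain of a collagen-binding integrin (362 and 240 CPM), and for the integrin chain Itgb1 (840 and 460 CPM). Past 2-fold at P7, 1 of 10 tested rose in mural-like cells (Itgb4, 1.11, from 23 and 49 UMIs), and 5 of 10 rose in epithelial-like cells, led by the laminin receptor Bcam (1.73, 215 to 710 CPM) and the collagen receptor Ddr1 (1.73, 32.9 to 109 CPM). None of 8 in endothelial-like, 10 in Schwann-like and 6 in mesenchymal-like cells passed in either direction. In epithelial-like cells the median of the list was 0.93, beside 0.13 over all genes tested there. Macrophage-like cells gave almost the same median, 0.92, with 2 of 5 tested higher at P7, as 13.5% of all genes were. The part of free RNA in the epithelial-like rise was not tested.

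Of 15 genes of collagen and laminin biosynthesis, 13 were present. None of those tested passed 2-fold in mural-like (12 tested) or Schwann-like cells (10). In mesenchymal-like cells 2 of 10 rose, the lysyl hydroxylases Plod1 (1.17, 64.1 to 144 CPM) and Plod2 (1.06, 24.9 to 51.9 CPM). In epithelial-like cells 3 of 11 rose, led by Plod2 (1.62) and Plod1 (1.41), and in endothelial-like cells 1 of 10 fell, the prolyl hydroxylase subunit P4ha2 (-1.90, 37 and 9 UMIs). Macrophage-like cells had 4 of 10 higher at P7, among them Plod1 (26.5 and 70.9 CPM).

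Of 12 turnover genes, all present, Htra1, a secreted serine protease, fell past 2-fold in Schwann-like cells (951 to 300 CPM, -1.67) and rose in mesenchymal-like cells (85.8 to 234 CPM, 1.45). Bmp1, a metalloprotease that processes matrix proteins, rose in Schwann-like (1.23), mesenchymal-like (1.05) and endothelial-like cells (1.03). Mmp15, a membrane-bound metalloprotease, rose in endothelial-like cells (1.60, 22.4 to 68.1 CPM), and the protease Adamts1 fell in mural-like cells (-1.36, 39 and 15 UMIs). In all, 1 of 11 fell in mural-like, 2 of 11 rose in endothelial-like, 1 of 9 rose and 1 fell in Schwann-like, 3 of 10 rose in epithelial-like and 2 of 10 rose in mesenchymal-like cells.

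Hspg2, the gene of perlecan, had no row under its symbol, and its level is not given. RefSeq lists the older name AABR07073181.1 for it. Of the 2 rows that carried the name AABR07073181, one had 0 UMIs in every class and the other was low. Which of them, if either, is Hspg2 cannot be told from the names, so the values of the second row are given apart from those of the members.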

How the data were processed

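The authors deposited 1 matrix of UMI counts per library, made from 10x 3' libraries with Cell Ranger 3.1.0 (per the file headers) on the rat genome rn6. The submitters' processing notes also name bcl2fastq and Seurat 3.1.1. Values were counts, not normalized. A cell was kept if it had over 500 and under 5000 genes, a total of 500 UMIs or more, and a mitochondrial share below 25%, which left 12779 of 14068 barcodes at P1 and 12581 of 14501 at P7. These numbers differ slightly from those the study gives, for a reason not found. Total counts were 114285848 and 101264868 UMIs.

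Both libraries were merged and clustered in Seurat 5.3.0 (1979 variable genes, the genes of the lists described left out, 10 principal components, 20 neighbours, resolution 0.8). A cluster took a class name only with at least 3 of its markers detected in at least 10% of cells and a marker score of at least 0.5, a rule settled after the 24 clusters had been seen. Differences from the study may come from these rebuilt names. Scrublet (scanpy 1.11.5) marked 622 and 775 cells as doublets, which were kept, and removed as an alternative. An osteoblast-like cluster, a cluster mixing Schwann and mesenchymal markers and 3 unnamed clusters were kept out of the 5 classes. The osteoblast-like cluster held 4 cells at P1 and 1465 at P7, so this step removed cells of P7 almost alone. With CCA integration of the libraries, an osteoblast-like cluster held 730 cells of P1 and 642 of P7. Its leading genes included Penk, Pnoc, Col8a1 and Col1a1, as did those of the P1 cluster c1, which was kept as mesenchymal-like. Mesenchymal-like ratios between ages may thus compare unlike sets of cells.

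Summed UMIs per class were scaled to CPM. Ratios between ages had to reach 2-fold to be called, among genes with a mean of at least 10 CPM and at least 20 UMIs in the class. With 1 library per age no p-value was computed. Shares of cells with a UMI came from cells thinned to 2000 UMIs, and cells with fewer (252 at P1 and 711 at P7) were left out of them. The ratio between ages and its interval were checked on simulated counts. Clustering, class names, thinning and background subtraction were not checked in this way. From each wider list, at most the 2 genes with the largest called ratio in each direction per class and the gene highest in each class were to be named. Lama5, Smoc2, Itga1, Itga6, Itgb4 and Dag1, Col4a4 and Col4a5 in mural-like and Col15a1 in endothelial-like cells were named beyond that rule, after their values were seen. For Col4a1, Lama2, Lama4 and Nid1 the 3 genes with the highest mean r over clusters are named. Other clusterings, cell filters, totals and background corrections were tried as alternatives. The members and lists were chosen with earlier results of these data known.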

Additional observations from a re-analysis of the deposited data

Results flagged for a closer look

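Nid1 had P7 to P1 ratios of opposite sign between classes, and these differences were not tested, since each age has 1 library. Its log2 ratio of P7 to P1 in endothelial-like cells lay 0.73 above that in mural-like cells and 0.80 above that in Schwann-like cells. In mesenchymal-like cells it lay 0.96 above that in mural-like cells and 1.03 above that in Schwann-like cells. With the macrophage-like level subtracted, the ratio was 0.23 in mesenchymal-like and -0.66 in endothelial-like cells. It was -0.68 in mural-like and -1.57 in Schwann-like cells. The differences thus kept their sign, with endothelial-like and mural-like cells almost level. Of these classes, mesenchymal-like cells alone then had a ratio above 0.

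One of the rows named AABR07073181, which belongs to no comparison above, stood above the whole interval of macrophage-like cells in 3 classes. Its level was 14.8 CPM (9.74 to 21.5) in endothelial-like cells at P1 and 12.7 CPM (7.83 to 19.3) at P7. In Schwann-like cells it was 12.1 CPM (10.2 to 14.4) and 9.44 CPM (8.18 to 10.8). In mural-like cells it was 6.36 CPM (3.29 to 11.1) at P7. Mural-like cells at P1 and epithelial-like and mesenchymal-like cells at both ages also held UMIs of it, at 2.13 to 4.71 CPM. Macrophage-like cells held 1 UMI of it at P1 and 0 at P7.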

How the results depend on the processing

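No paired analysis was possible because each age has 1 library. Leaving out a replicate was likewise not possible. The settings that leave out dividing, mixed or age-specific clusters, count osteoblast-like cells as mesenchymal-like or subtract the macrophage-like level were chosen after seeing the data. The counts of members past 2-fold in mural-like cells were 0 higher in each setting and 2 or 3 lower, the third being Lama4 (-0.93 to -1.17). In mesenchymal-like cells the 1 higher became 2 with CCA integration, resolution 1.2, 30 principal components, a mitochondrial limit of 10% or a mean over cells, 3 at resolution 0.4 and 0 with the macrophage-like level subtracted. The 1 lower became 0 at resolution 0.4, a mitochondrial limit of 10%, shared clusters only or osteoblast-like cells included, and 2 with mixed cells removed or the macrophage-like level subtracted. In epithelial-like cells the 3 higher became 1 at resolution 1.2 or by a mean over cells and 0 with mixed cells removed or the macrophage-like level subtracted, and the 1 lower became 0 and 2 under the last 2 of these. The epithelial-like Lama2 ratio was 2.18 to 2.93 wherever a value could be given. In endothelial-like cells the 1 higher became 0 with doublets or mixed cells removed or the macrophage-like level subtracted, although the Lama2 ratio itself was 1.03 to 3.06 wherever a value could be given, and with doublets or mixed cells removed its level missed the filter. There the 1 lower became 2 with doublets removed, a total without mitochondrial, ribosomal protein and haemoglobin genes, a mean over cells or the macrophage-like level subtracted. In Schwann-like cells the 2 lower became 4 with mixed cells removed or the macrophage-like level subtracted and 1 with shared clusters only. Nid1 in epithelial-like cells went from 1.08 to -0.67 with mixed cells removed, a step that took 29.9% to 77.8% of the cells of a class and library. Mixed cells had at least 2 markers of a list (mural, endothelial, Schwann, epithelial, macrophage or neuron) other than their own. Mesenchymal markers were not counted. Of mesenchymal-like cells, 47.4% at P1 and 62.3% at P7 held at least 2 endothelial markers. The share of all genes past 2-fold in 1 direction ran from 4.46% to 12.1% over the 5 classes, from 3.13% to 8.02% among genes of at least 50 CPM and from 6.09% to 13.9% with no filter on the mean. The cause of these shifts was not tested. Intervals cover counting error only, and the spread between animals is unknown.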

Other observations

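Cells kept out of the 5 classes also held the members. The osteoblast-like cluster, with 4 cells at P1 and 1465 at P7 and led by genes of bone matrix such as Ibsp and Dmp1, gave 752 CPM of Col4a1, 74.0 CPM of Col4a2, 408 CPM of Nid1 and 158 CPM of Lama2 at P7. Lama4 was 22.2 CPM there. The P7 cluster with Schwann and mesenchymal markers together (441 cells, 85.0% of them called doublets) gave 388 CPM of Col4a1 and 266 CPM of Nid1. Neuron-like cells, 288 at P1 and 0 at P7, gave 203 CPM of Col4a1. They also held 1019 CPM of the 13 Schwann markers, against 4461 CPM in Schwann-like cells at P1. The part of Schwann cell transcripts in their Col4a1 value was not tested.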
